A study of Homo sapiens with 4 samples.

Results

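The genes described are 10 markers of lipid-laden macrophages, chosen by name for their part in lipid handling and scavenging: SPP1, GPNMB, APOE, APOC1, MSR1, MARCO, FABP4, FABP5, PLIN2 and LPL. They were read by 21 probe sets of the 54675 on the array, each probe set being a group of short probes against part of a transcript. The 10 genes are among 19775 genes that had a probe set naming no other gene. Of the 10, 8 were measured, meaning that their probe set with the highest mean reached the median of all values, 6.19 log2, on at least 1 array. MSR1 and FABP4 stayed under that level on all 4 arrays. Of the 21 probe sets, 13 reached it.

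The cells were THP-1, a human line established from an acute monocytic leukaemia. All 4 groups were this line, with 1 array each: resting cells, cells given the synthetic lipopeptide Pam3CSK4, and Pam3CSK4-treated cells kept with platelet-like particles for 12 h or for 24 h. Pam3CSK4 is a ligand of the receptor pair TLR1 and TLR2. The titles of the co-culture samples carry the numbers 13 and 25 where their descriptions give 12 h and 24 h, which were used. The source of the particles, their dose and the length of the treatment with Pam3CSK4 alone are not given in the sources used here, so time and particles cannot be told apart in a comparison with the Pam3CSK4 array. With 1 array per group there was no spread between cultures and no test. The number of arrays sets how precisely any difference below is known, and the order of 2 arrays that lie close together cannot be told from error.

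A macrophage that takes up more lipid than it can export stores the excess in droplets and becomes a foam cell, the hallmark cell of the atherosclerotic plaque. Modified lipoproteins enter through scavenger receptors such as MSR1 and MARCO, and lipoprotein lipase (LPL) frees fatty acids from triglyceride outside the cell. Fatty-acid-binding proteins carry these inside, perilipin 2 (PLIN2) coats the droplets, and the apolipoproteins APOE and APOC1 travel on lipoprotein particles, APOE also as an acceptor of exported cholesterol. SPP1, the secreted adhesion protein osteopontin, and GPNMB, a glycoprotein of lysosomes and the cell surface, mark lipid-associated macrophages of adipose tissue and plaques.

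A proxy for RNA integrity differed between the arrays. It was read from control probe sets at either end of a transcript. The 3' set of GAPDH exceeded the 5' set by 2.16 log2 on the resting array and by 0.59 to 0.92 on the others. For ACTB the excess was 3.41 on the resting array and 2.90 to 3.17 on the others. Among the treated arrays the 12 h array had the widest excess, 0.92 for GAPDH and 3.17 for ACTB, against 0.59 and 2.91 with Pam3CSK4 and 0.70 and 2.90 at 24 h. By this proxy, which rests on GAPDH and ACTB alone, the resting array had the widest excess and the 12 h array the next widest. RNA integrity itself was not measured in the data used here. Of the measured members, LPL, APOC1 and FABP5 were lowest on the 12 h array. PLIN2 and, on probe set 1554018_at, GPNMB were highest there. The part of RNA integrity in the members' differences was not tested. The line's own markers were present: of 10 monocyte and macrophage markers 8 had a probe set, and 7 of these stood above 6.19 on every array, FCGR1A being the exception. Adipocytes share several of the 10 genes. Of 8 adipocyte markers 7 had a probe set and 3 were measured: PNPLA3 at 9.16 to 9.70, CIDEC at 6.76 to 7.19 and PLIN1 at 6.20 to 6.71. Their summed log2 level over 7 genes was 42.8, 42.6, 43.0 and 42.8 in the order of the arrays, and the secreted products ADIPOQ and LEP stood at no more than 3.44 and 5.17 on any array. The part of adipocyte transcripts in the members' values was not tested.

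The upstream sequences of GPNMB, PLIN2 and MARCO are shown as examples of members whose values lay above (GPNMB, PLIN2) or below (MARCO) the resting value on all 3 treated arrays and that held E-box letters. They were chosen after their values and matches were seen. RefSeq promoters in build GRCh38.p14 were at hand for 6 of the 10 genes, and each line gives the 250 bases before the annotated start, 5' to 3' on the strand of the gene. Capitals mark matches, on either strand, to TGANTCA (AP-1), CATGTG or CACGTG (E-boxes, the core bound by MITF and TFE proteins), GAGGAA (PU.1) and TATAAA.
GPNMB, chr7:23246525-23246774, plus strand: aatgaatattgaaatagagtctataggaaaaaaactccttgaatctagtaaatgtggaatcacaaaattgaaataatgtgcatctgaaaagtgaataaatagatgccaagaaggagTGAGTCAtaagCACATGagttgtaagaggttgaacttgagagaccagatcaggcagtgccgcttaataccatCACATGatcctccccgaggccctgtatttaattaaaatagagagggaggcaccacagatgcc
PLIN2, chr9:19127493-19127742, minus strand: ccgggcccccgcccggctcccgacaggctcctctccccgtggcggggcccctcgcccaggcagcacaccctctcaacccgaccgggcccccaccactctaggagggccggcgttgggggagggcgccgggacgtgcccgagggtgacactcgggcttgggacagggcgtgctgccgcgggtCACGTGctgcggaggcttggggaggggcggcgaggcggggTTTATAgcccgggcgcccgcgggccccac
MARCO, chr2:118941944-118942193, plus strand: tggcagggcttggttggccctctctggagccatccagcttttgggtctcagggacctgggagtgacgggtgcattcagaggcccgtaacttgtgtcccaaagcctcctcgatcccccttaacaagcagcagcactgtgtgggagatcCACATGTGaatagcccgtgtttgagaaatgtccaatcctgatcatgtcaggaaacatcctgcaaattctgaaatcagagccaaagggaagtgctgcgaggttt

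GPNMB held 1 AP-1 match, at position -134 from the start, and 2 matches to CATGTG, at -123 and -62. PLIN2 held CACGTG at -69. Its match to TATAAA, at -29, lies on the strand opposite to the gene, so the printed sequence reads TTTATA there. MARCO held CATGTG on both strands of 1 palindrome, so its 2 matches overlap. SPP1, also above its resting value on all treated arrays, held no match to any of these letters, and APOE held GAGGAA once, at -144. Among 27305 RefSeq promoters of this length, 6.60% held the AP-1 letters, 9.54% CATGTG, 6.49% CACGTG, 23.4% GAGGAA and 11.1% TATAAA. The consensus repeats of PPAR with RXR (DR1) and of LXR with RXR (DR4) were in none of the 6 promoters. These letters are a description of sequence, and the arrays measured no binding.

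**Figure D1:**
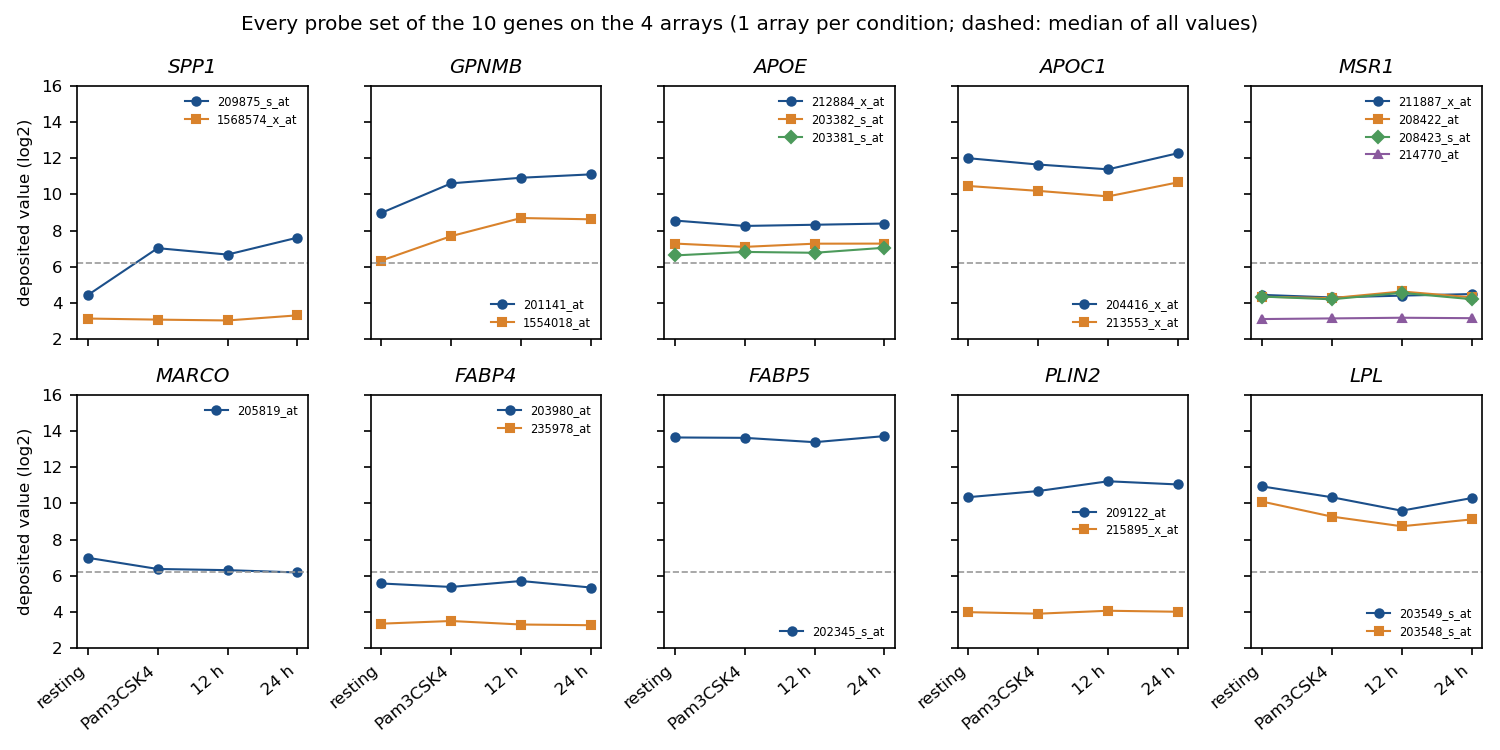
Deposited log2 values (y axis) of all 21 probe sets of the 10 genes on the 4 arrays (x axis), with 1 line per probe set and a dashed line at the median of all values, 6.19. SPP1 and GPNMB climb from resting to Pam3CSK4, LPL is lowest at 12 h, and all lines of MSR1 and FABP4 lie under the dashed line.

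SPP1 had the widest range of the measured members. Its value on probe set 209875_s_at was 4.43 log2 in resting cells, 7.03 with Pam3CSK4, 6.67 at 12 h and 7.61 at 24 h. Here the resting array stood apart from the treated arrays, and the 24 h array was the highest. The difference between Pam3CSK4 and resting cells was 2.60, and 112 of 13410 measured genes (0.835%) had a larger one. The resting value lay at percentile 20.5 of its array, where signal over background was not established, so the exact size depends on background. Against Pam3CSK4 alone, SPP1 differed by -0.36 at 12 h and by 0.58 at 24 h. The latter difference was exceeded by 22 genes. The other SPP1 probe set, 1568574_x_at, lay between 3.02 and 3.31 on all arrays, near the lower end of the scale, and shows no such step.

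GPNMB was higher on every treated array than on the resting array, on both of its probe sets. On 201141_at it stood at 8.98 in resting cells, 10.61 with Pam3CSK4, 10.92 at 12 h and 11.11 at 24 h. On 1554018_at the values were 6.34, 7.69, 8.69 and 8.62 in the same order. All 8 values were above 6.19, so for this gene the step does not start from background. The Pam3CSK4 array stood 1.64 and 1.35 log2 above the resting array on the respective probe sets, which is 3.11-fold and 2.55-fold. The particles coincided with a further difference from Pam3CSK4 of 0.31 and 1.001 at 12 h and of 0.50 and 0.93 at 24 h. The probe sets thus share the direction but differ in size, and 1554018_at alone reached 2-fold, at 2.002-fold and at 12 h. Among 23905 probe sets naming 1 gene and above the filter, 0.339% were at least 2-fold higher at 12 h. The probe sets also disagree on whether 24 h or 12 h was the higher.

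PLIN2 was higher with each treatment by less than 2-fold. Probe set 209122_at read 10.34 in resting cells, 10.68 with Pam3CSK4, 11.22 at 12 h and 11.05 at 24 h. Both co-culture arrays lay above the Pam3CSK4 array, by 0.54 at 12 h and by 0.36 at 24 h. These differences were exceeded by 311 and 177 of the 13410 genes. The gap between the highest array and the resting array was 0.88, or 1.84-fold. The other PLIN2 probe set, 215895_x_at, lay between 3.90 and 4.06 throughout.

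LPL took the opposite course, with its lowest value at 12 h on both probe sets. On 203549_s_at it was 10.94 in resting cells, 10.34 with Pam3CSK4, 9.60 at 12 h and 10.29 at 24 h. On 203548_s_at it was 10.10, 9.27, 8.73 and 9.11. Each probe set ranked the arrays alike, from resting at the top through Pam3CSK4 and 24 h to 12 h. The difference from resting to Pam3CSK4 was -0.60 and -0.83, and that from Pam3CSK4 to 12 h was -0.75 and -0.54. Of 13410 genes, 161 (1.20%) had a lower difference at 12 h than the -0.75 of LPL. At 24 h LPL was within 0.16 log2 of its Pam3CSK4 value on either probe set, at -0.05 and -0.16. Over all arrays the range was 1.34 and 1.37 log2, so resting cells had 2.54-fold and 2.58-fold the 12 h value.

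The scavenger receptors among the members, MARCO and MSR1, were low or lower. MARCO, with a single probe set, stood at 6.99 in resting cells, 6.37 with Pam3CSK4, 6.31 at 12 h and 6.18 at 24 h, which is close to the filter level. Its difference with Pam3CSK4 was -0.62, and 5.13% of measured genes had a lower one. The 4 probe sets of MSR1 lay between 3.10 and 4.63 on all arrays and at or below percentile 22.8. No treatment brought MSR1 to the filter level, and its differences are therefore not read. In a bulk sample, fewer cells with a transcript and less of it per cell cannot be told apart, for MARCO as for the other genes here.

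The apolipoprotein genes APOE and APOC1 are neighbours on chromosome 19, between TOMM40 and APOC4, and their values did not run in parallel at 24 h. APOC1 read 12.00 in resting cells, 11.65 with Pam3CSK4, 11.39 at 12 h and 12.28 at 24 h on 204416_x_at. On 213553_x_at it read 10.47, 10.20, 9.89 and 10.67, with the arrays in the same order. The 24 h array was thus the highest and the 12 h array the lowest on both. At 24 h the difference from Pam3CSK4 was 0.63 and 0.47, and 18 of 13410 genes exceeded 0.63. Between 12 h and 24 h the difference was 0.89 and 0.78, the former exceeded by 77 genes. Both probe sets carry the suffix _x_at, which marks probes that can bind related transcripts, so a share from such transcripts is uncertain.

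APOE varied little. Its brightest probe set, 212884_x_at, read 8.55 in resting cells, 8.26 with Pam3CSK4, 8.32 at 12 h and 8.39 at 24 h. Its other probe sets, 203382_s_at and 203381_s_at, ranged from 7.10 to 7.28 and from 6.62 to 7.05. With Pam3CSK4 the differences were -0.30, -0.18 and 0.19, so the probe sets do not share a sign. At 24 h they were 0.13, 0.18 and 0.23 above Pam3CSK4. APOC2, the cofactor of LPL encoded in the same cluster, ranged from 7.02 to 7.22.

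Of the pair of fatty-acid-binding proteins, FABP5 was measured and FABP4 was not. FABP5, the epidermal form that macrophages also make, was at 13.65 in resting cells, 13.63 with Pam3CSK4, 13.39 at 12 h and 13.72 at 24 h. Its values were at or above percentile 99.2 on every array and its range was 0.34. FABP4, the adipocyte and macrophage form, was between 5.34 and 5.71 on 203980_at and between 3.26 and 3.49 on 235978_at. FABP4 and FABP5 lie in 1 cluster on chromosome 8 with PMP2 and FABP9. As FABP4 stayed under the filter level, its differences are not read.

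**Figure D2:**
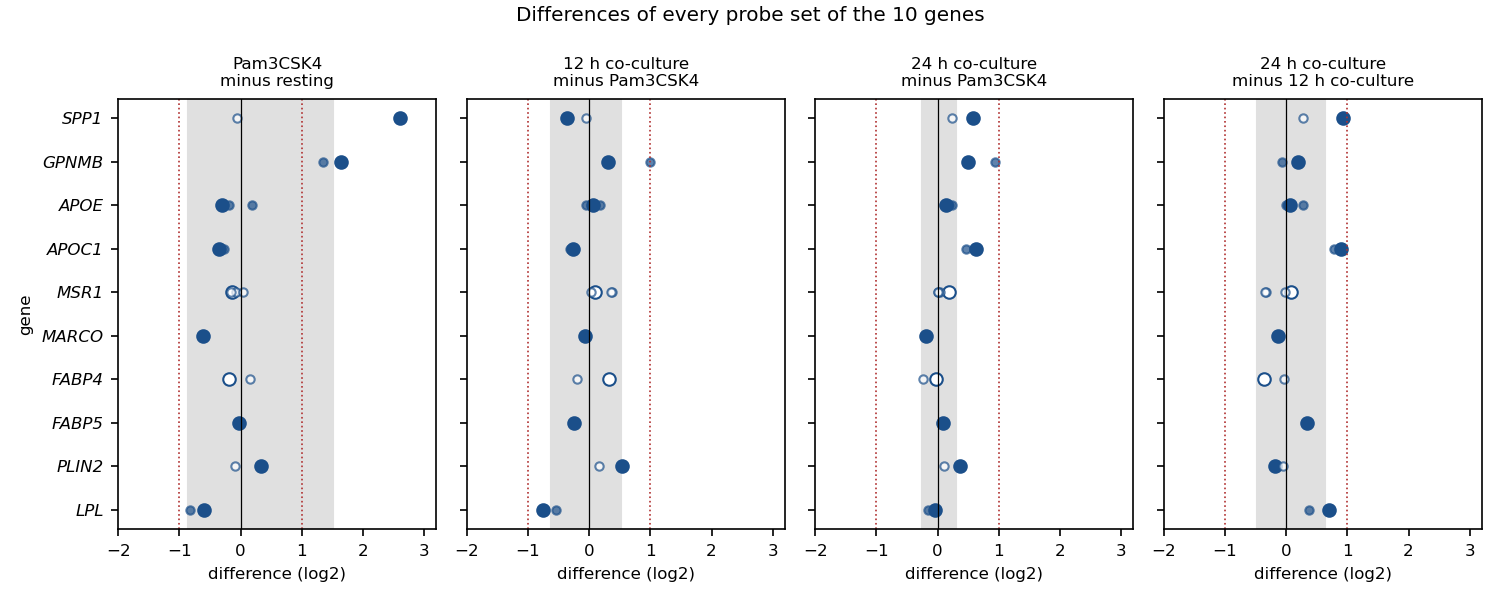
Differences between arrays (x axis, log2) of every probe set of each gene (y axis) in 4 comparisons. Large circles are the probe set with the highest mean, small circles the others and open circles those under 6.19 on all arrays; grey marks the middle of all measured genes, from percentile 2.5 to 97.5, and dotted lines mark 2-fold. With Pam3CSK4 the large circles of SPP1 and GPNMB lie beyond 2-fold, at 2.60 and 1.64, and no large circle does in the other comparisons.

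Counted together, the members lay on both sides of 0 with Pam3CSK4. Of the 8 measured members 2 were at least 2-fold higher than in resting cells, SPP1 and GPNMB, against 4.14% of all measured genes, and 0 were at least 2-fold lower, against 1.71%. The median of the 8 was -0.16, against -0.05 over all 13410 genes. SPP1 passed the filter through its treated arrays, so its place among the measured members is not independent of the difference. Against Pam3CSK4 alone, 0 of 8 were at least 2-fold higher or lower at 12 h, where 0.41% of all genes were higher and 0.35% lower, and the median was -0.15 against -0.05. At 24 h 0 of 8 were 2-fold higher or lower, against 0.0298% and 0% of all genes.

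At 24 h the members nevertheless lay toward the upper side. Their median difference from Pam3CSK4 was 0.25, against -0.01 for all genes, and 6 of the 8 lay above 0, where 47.5% of all genes did. APOC1, SPP1, GPNMB and PLIN2 lay above percentile 97.5 of all genes, 0.30. With its 2 probe sets averaged, PLIN2 stood at 0.24. MARCO and LPL were the members below 0. Between the co-culture arrays, 24 h minus 12 h, the median was 0.26 against 0.04 and 0 of 8 reached 2-fold, against 0.343% of all genes higher and 0.224% lower. SPP1 at 0.94, APOC1 at 0.89 and LPL at 0.70 stood highest there. The comparisons with Pam3CSK4 share that array, and those with 12 h share the 12 h array, so they do not back each other. With no filter, all 10 members had a median of 0.0003 at 12 h and 0.16 at 24 h.

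**Figure D3:**
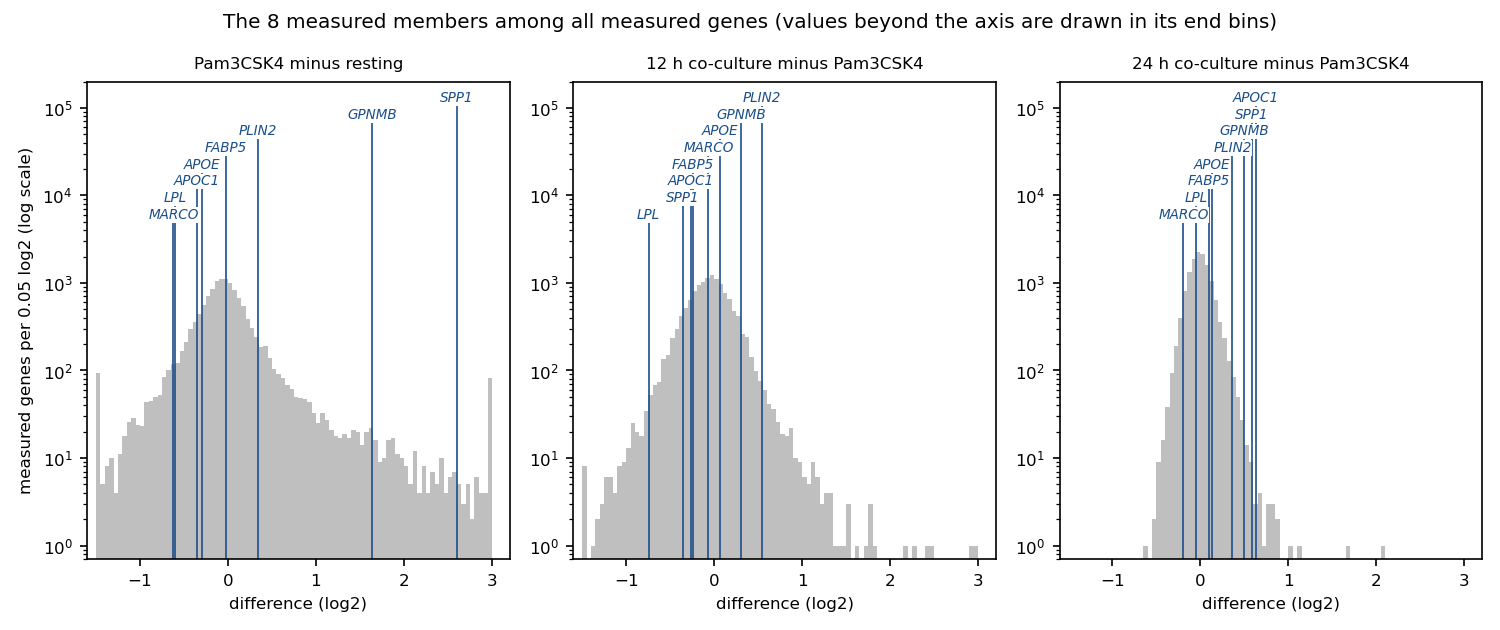
Number of measured genes (y axis, log scale) by difference (x axis, log2, bins of 0.05) in 3 comparisons, with a blue line at each of the 8 measured members. SPP1 and GPNMB stand in the upper tail with Pam3CSK4, PLIN2 and LPL near opposite ends at 12 h, and APOC1, SPP1, GPNMB and PLIN2 in the upper tail at 24 h.

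Other genes of lipid-associated macrophages showed the widest differences with Pam3CSK4 among the lipid-related lists. Of 16 listed, 14 had a probe set and 11 were measured. The median was 0.41, with 4 genes at least 2-fold higher and 1 lower, against 4.14% and 1.71% of all measured genes. LGALS3, the lectin galectin-3, went from 10.60 to 12.90, the focal adhesion adaptor LPXN from 7.82 to 11.53 and the lysosomal protease gene CTSD from 8.53 to 10.11. TREM2, a lipid-sensing receptor of such macrophages, differed in the opposite sense. It stood at 12.12 in resting cells, 10.61 with Pam3CSK4, 11.55 at 12 h and 10.98 at 24 h. Its 12 h value lay 0.94 above Pam3CSK4, just under 2-fold. TYROBP, the signalling partner of TREM2, differed by 0.42 with Pam3CSK4 and by 0.16 at 12 h. MMP12 and CHIT1, an elastase and a chitinase of foamy macrophages, were under the filter level on all arrays.

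Receptors that bring lipid into the cell differed from one another. Of 12 scavenger and lipoprotein receptors 11 had a probe set and 8 were measured. The median difference with Pam3CSK4 was 0.11, with 2 of the 8 past 2-fold upward and 1 downward, against 4.14% and 1.71% of all measured genes. CD36, which takes up oxidised lipoprotein and fatty acids, went from 8.33 to 10.89 and stayed at 11.05 and 11.12 in the co-cultures. VLDLR, a receptor of triglyceride-rich lipoproteins that acts together with LPL, went from 10.71 to 8.74. Its co-culture values were 8.34 and 8.61. CD163, the haemoglobin scavenger, went from 5.17 to 6.19, both at or under the filter level. Neither co-culture array had a 2-fold difference from Pam3CSK4 in this list, with medians of -0.08 and 0.06. Few of all measured genes had such a difference either. At 12 h 0.41% were higher and 0.35% lower, and at 24 h 0.0298% and 0%. OLR1, another receptor of oxidised lipoprotein, was at 3.64 or less on all arrays.

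Few lipid storage and lipoprotein genes were past 2-fold in any comparison. In the droplet and fatty acid list 17 of 20 were measured, and 1 was at least 2-fold higher with Pam3CSK4: ACSL1, which activates fatty acids, at 1.61. That is 1 of 17, against 4.14% of all measured genes. On the co-culture arrays 0 of the 17 were 2-fold different from Pam3CSK4, where few genes were (0.41% higher at 12 h and 0.0298% at 24 h), and the medians were -0.02 and 0.07. ACSL4, a related enzyme that prefers arachidonic acid, was 1.02 higher at 24 h than at 12 h. It was the 1 of the 17 at least 2-fold higher in that comparison, against 0.343% of all measured genes. In the same comparison 0 were 2-fold lower, against 0.224%. In the lipoprotein and efflux list 9 of 15 were measured and 0 were 2-fold different in any of the 4 comparisons. Few of all measured genes were either. With Pam3CSK4 4.14% were higher and 1.71% lower, and at 12 h 0.41% and 0.35%. At 24 h the shares were 0.0298% and 0%, and for 24 h minus 12 h they were 0.343% and 0.224%. The list's median difference from Pam3CSK4 was -0.14 at 12 h and -0.06 at 24 h. Among its genes chosen after their values were seen, the cholesterol exporter ABCA1 differed by -0.64 at 12 h and by 0.18 at 24 h. MYLIP, which degrades lipoprotein receptors, differed by -0.82 and by -0.15.

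Of the regulators, 12 of 14 were measured. TFEB, the master regulator of lysosomal genes, was the gene in this list that reached 2-fold with Pam3CSK4, at 1.24, from 9.26 to 10.50. Its relatives TFE3, TFEC and MITF, which bind the E-box letters marked above, differed by 0.60, 0.50 and 0.14, and at 12 h by a further 0.42, 0.31 and 0.44. At 24 h they were 0.01, 0.20 and 0.11 above Pam3CSK4. PPARG, which drives fatty acid uptake genes, differed by -0.45 with Pam3CSK4, and from Pam3CSK4 by -0.48 at 12 h and 0.10 at 24 h. NR1H3, which encodes the oxysterol receptor LXR alpha, differed by -0.62 at 12 h and by 0.05 at 24 h. All but TFEB are named here after their values were seen. With Pam3CSK4 1 of 12 was at least 2-fold higher and 0 lower, against 4.14% and 1.71% of all measured genes. In the co-cultures 0 of 12 were 2-fold different from Pam3CSK4. Of all measured genes 0.41% were higher and 0.35% lower at 12 h, and 0.0298% and 0% at 24 h.

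Of the receptors that bind osteopontin, the product of SPP1, 7 of 8 were measured. CD44 went from 9.91 to 11.93 with Pam3CSK4. It was the 1 of the 7 at least 2-fold higher, against 4.14% of all measured genes, and 0 were 2-fold lower, against 1.71%. The integrin gene ITGA4 stood at 9.90 with Pam3CSK4, 8.83 at 12 h and 9.88 at 24 h, so the 12 h array was the low one, by 1.07. It was the 1 of the 7 at least 2-fold lower at 12 h than with Pam3CSK4, against 0.35% of all measured genes.

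**Figure D4:**
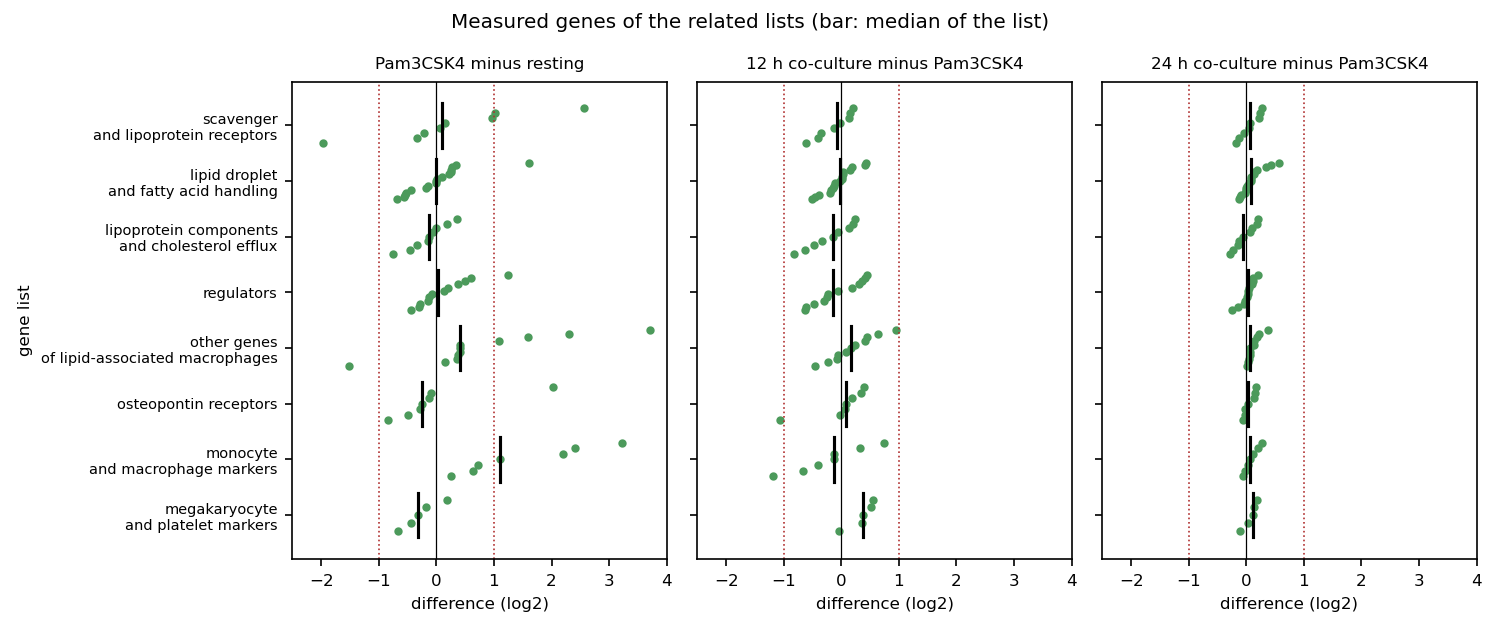
Differences (x axis, log2) of the measured genes of 6 lipid-related lists and of 2 marker lists (y axis) in 3 comparisons, with a point per gene, a bar at the median of the list and dotted lines at 2-fold. The spread is widest with Pam3CSK4 and narrowest at 24 h, where no point reaches 2-fold.

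Marker genes of the cells themselves differed along with these values. Of the 7 measured monocyte and macrophage markers 4 were at least 2-fold higher with Pam3CSK4, against 4.14% of all measured genes. These were PTPRC, CD14, ITGAM and MPEG1, and the list's median was 1.10. Its summed log2 level over 8 genes was 64.4 in resting cells, 74.5 with Pam3CSK4, 73.0 at 12 h and 75.5 at 24 h. At 12 h CD14 was 1.18 lower than with Pam3CSK4 and 1.38 lower than at 24 h. It was the 1 of the 7 at least 2-fold lower at 12 h than with Pam3CSK4, against 0.35% of all measured genes. CD14 was also the 1 of the 7 at least 2-fold higher at 24 h than at 12 h, against 0.343%. Of 10 megakaryocyte and platelet markers 8 had a probe set and 5 were measured, and 0 of these differed 2-fold in any comparison. Few of all measured genes did either, so a count of 0 of 5 says little. With Pam3CSK4 4.14% were higher and 1.71% lower, and at 12 h 0.41% and 0.35%. At 24 h the shares were 0.0298% and 0%, and for 24 h minus 12 h 0.343% and 0.224%. The summed level of the 8 platelet markers was 48.2, 46.8, 48.8 and 47.6 in the order of the arrays. With Pam3CSK4 the median difference of the 5 from resting cells was -0.31, against -0.05 over all genes. At 12 h the median difference of the 5 from Pam3CSK4 was 0.38, against -0.05 over all genes. TREML1 stood at 0.54, SELP at 0.51, GP1BA at 0.38 and GP9 at 0.36, while ITGA2B stood at -0.04. These differences and those from resting cells share the Pam3CSK4 array. At 12 h TREML1 (7.12), GP9 (7.51) and ITGA2B (6.24) were below their resting values of 7.25, 7.58 and 6.45. SELP (6.57) and GP1BA (6.79) were above theirs, 6.37 and 6.22, which lay near the filter level. At 24 h the median of the 5 was 0.11, against -0.01. PF4 and PPBP, abundant platelet transcripts, were under the filter level throughout, at no more than 5.97 and 3.79. The part of these markers in the members' differences was not tested.

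Genes with a similar pattern over the 4 arrays were sought for the 3 measured members with the widest range. Likeness was the root mean square distance between values centred on each gene's mean. For SPP1 the closest of 13409 genes were ABCA6, PNMA2 and RIN2, at 0.10, 0.12 and 0.12 log2, and 8 genes lay within 0.25. For GPNMB they were GBP1, CADM1 and GPR183, at 0.03, 0.05 and 0.05, with 135 genes within 0.25. For LPL they were LMO2, PRSS12 and FAM86B3P, at 0.02, 0.03 and 0.03, with 947 genes within 0.25. With 4 points per gene this describes the arrays and no more. Of the other members, GPNMB was the nearest to SPP1, at 0.44, and MARCO the nearest to LPL, at 0.32. Among the 13409 genes these were only at rank 79 and at rank 2015, so many genes lay closer.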

How the data were processed

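Biotin-labelled RNA of THP-1 cells was read on 4 Affymetrix arrays, per the labels' protocols. The deposited values are log2 values, made with RMA in affy 1.28.1, per the submitters' processing notes. RMA brings arrays to a common distribution, so a global change in RNA cannot be seen, and low signals are compressed toward one another. No detection calls were used.

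Groups came from the source labels, and 0 columns were left unmapped. Probe sets were named from the platform annotation: 41091 name 1 gene, 1801 name several, and the 62 control probe sets were set aside. RefSeq GRCh38.p14 held 41037 of the gene identifiers and updated 0 symbols. Each gene took the values of its brightest probe set by mean, among those naming it alone. The 13410 genes whose probe set reached 6.19 (the overall median) somewhere counted as measured. Differences of 1 log2, 2-fold, were counted. With 1 array per group there was no test.

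The members and lists were chosen with earlier results of these data known. From each list, up to 4 measured genes at least 2-fold different per comparison were to be named, with all members, the 3 closest patterns of the 3 members with the widest range, and ACTB and GAPDH. Listed genes without a probe set naming them alone were not analysed here. Counting was tested on simulated arrays. Python 3.11.15, numpy 2.4.6, pandas 2.3.3, matplotlib 3.10.9, R 4.3.3 and limma 3.58.1 were used.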

Additional observations from a re-analysis of the deposited data

Results flagged for a closer look

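For 3 measured members the differences from the Pam3CSK4 array had opposite signs at 12 h and at 24 h. SPP1 stood 0.94 log2 higher at 24 h than at 12 h, APOC1 0.89 higher and FABP5 0.34 higher. Each time rests on 1 array and both differences share the Pam3CSK4 array, so the difference between the times was not tested.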

How the results depend on the processing

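The members' counts, medians and differences were recomputed without the filter, with a filter at the 75th percentile, with a gene's probe sets averaged, with omission of _x_at and _s_at probe sets where others remain, with cyclic loess on the deposited values (3 iterations) and at thresholds of 1.5-fold and 3-fold. Omission of every _x_at and _s_at probe set was added after seeing the data. With Pam3CSK4 the count of 2 higher members became 1, GPNMB, with the 75th percentile filter, with averaged probe sets and with every _x_at and _s_at probe set omitted, since SPP1 was then under the filter or without a probe set. At 1.5-fold 2 members were lower with Pam3CSK4, MARCO and LPL, against 5.89% of all genes, and 1 was lower at 12 h, LPL, against 2.86%. At that threshold 1 was higher at 24 h than with Pam3CSK4, APOC1, against 0.164%, and 3 were higher at 24 h than at 12 h, SPP1, APOC1 and LPL, against 3.14%. With every _x_at and _s_at probe set omitted, 3 members remained (GPNMB, MARCO and PLIN2) and the median difference changed sign. It was 0.34 with Pam3CSK4, 0.31 at 12 h and -0.13 between 24 h and 12 h. Of 88 such counts and medians, 78 stayed within 1.5 times the count or within the spread of all genes. In the main setting every count was 0 except that of members higher with Pam3CSK4. A count of 0 at 2-fold is also 0 at 3-fold, so part of the 78 could not move. The 78 of 88 therefore says little about how far the results depend on processing. No difference of a single measured member changed sign under any of these settings. With averaged probe sets GPNMB differed from Pam3CSK4 by 0.66 at 12 h and 0.71 at 24 h, and PLIN2 by 0.24 at 24 h in place of 0.36. Values of the other lists and the pattern distances were not recomputed. No paired analysis was possible because each group holds 1 array. Signal over background was judged by level alone, which limits SPP1 in resting cells, MSR1 and FABP4.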

Other observations

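The other perilipins, which coat lipid droplets as PLIN2 does, differed by less than PLIN2 at 24 h. PLIN3, the widely expressed family member, read 10.25 in resting cells, 10.07 with Pam3CSK4, 10.05 at 12 h and 9.97 at 24 h. PLIN1, the adipocyte form, was near the filter level, at 6.20, 6.31, 6.71 and 6.44. PLIN4 and PLIN5 ranged from 6.21 to 6.24 and from 7.18 to 7.32. SOAT1, which esterifies cholesterol for storage, read 9.24, 9.50, 9.93 and 9.64, with its highest value at 12 h. These genes were named after their values were seen.

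Factors that act on LPL outside its transcription differed by less than 2-fold. ANGPTL4, an inhibitor of the enzyme, read 6.86 in resting cells, 6.73 with Pam3CSK4, 6.68 at 12 h and 6.45 at 24 h. Its 24 h difference from Pam3CSK4, -0.29, lay below percentile 2.5 of all genes, -0.25. LMF1, which the enzyme needs for its folding, read 7.74, 7.69, 7.82 and 7.46. GPIHBP1, which anchors it to capillary endothelium, lay between 6.04 and 6.38, at the filter level.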
